A study of Homo sapiens with 46 samples.

Results

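Long cassette exons, here internal exons of 300 bases or more that are either included in or skipped from the mature transcript, were followed across a study of the splicing factor TRA2B in human cancer cells. The members were chosen by length alone: every cassette exon event in 4 tables of splicing measurements whose exon, by its coordinates, was 300 bases or longer. This gave 6120 exons of 4421 genes, 5.38% of the 113686 cassette exons in the tables, and 2192 of them occurred in all 4 tables. An annotated intron lies inside 1381 of the 6120 (22.6%). Just outside the limit lay 24 exons of 299 bases, and just inside it lay 31 exons of 300 bases. An exon can occur in several events that differ in the neighbouring exons, so counts of exons are given once per exon and counts of events are named as such.

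The study treated cells with ASO-1570, an antisense oligonucleotide that switches the splicing of TRA2B, or with a small interfering RNA (siRNA) against TRA2B. Cells of the breast cancer line MDA-MB231 and of the glioblastoma line U87MG were transfected with ASO-1570 or a control oligonucleotide (ASO-CTL) at 200 nM, and in a separate experiment at 50 nM. Both lines were also transfected with siRNA-TRA2B or siRNA-CTL at 10 nM. Lipofectamine carried the oligonucleotides, RNA was taken after 48 h, and each group held 3 libraries. A breast tumour grown as a patient-derived xenograft (PDX) in mice received ASO-1570 or ASO-CTL at 50 mg/kg into the tumour, 3 times a week for 4 weeks, with 5 tumours in each group. All 46 libraries in 14 groups came from these 4 experiments, each line within an experiment had its own controls, and no untreated cells were compared here. The cell lines are established, the xenograft is of 1 tumour line, and its label describes the host mice as immunocompetent. No label names separate cultures, so the p-values measure only the spread between these libraries.

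Most human internal exons are far shorter than 300 bases, and long ones are recognised by the splicing machinery with the help of enhancer sequences inside the exon. TRA2A and TRA2B are related RNA-binding proteins that bind exonic sequences rich in GAA and usually favour inclusion of the exon. Both TRA2 genes also carry non-productive exons, through which the proteins are known to limit their own and each other's messenger RNA.

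The sequences below are stretches of 6 long exons that were less included after a TRA2B treatment in at least 1 comparison, with a stretch of a long TOX2 exon that holds no GAA. They are shown because GAA is the triplet that TRA2 proteins are known for, and they are a choice, not a sample of the exons that were lower. Every GAA of the sense strand is in capitals, with no other strand searched. Each window is the one with the most GAA in its exon, 30 bases for TRA2A and 120 bases for the others; TOX2, with none, is given from the start of its exon. Positions are on GRCh38, and the letters run 5′ to 3′ along the transcript, from GENCODE v29.
TRA2A, chr7:23522220-23522249, minus strand: tGAAttgggGAAGAAtacacGAAgtatGAA
CCDC112, chr5:115271375-115271494, minus strand: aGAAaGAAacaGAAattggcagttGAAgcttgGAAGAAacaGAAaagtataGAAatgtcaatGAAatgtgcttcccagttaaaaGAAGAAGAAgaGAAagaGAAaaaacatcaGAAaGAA
SGO1, chr3:20174627-20174746, minus strand: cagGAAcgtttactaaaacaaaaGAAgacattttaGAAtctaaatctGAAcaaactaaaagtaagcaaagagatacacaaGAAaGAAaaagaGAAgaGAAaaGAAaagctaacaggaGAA
CCPG1, chr15:55360822-55360941, minus strand: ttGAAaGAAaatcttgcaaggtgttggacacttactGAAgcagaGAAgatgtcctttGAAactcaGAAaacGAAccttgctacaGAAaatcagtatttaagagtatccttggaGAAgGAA
SIRT1, chr10:67912837-67912956, plus strand: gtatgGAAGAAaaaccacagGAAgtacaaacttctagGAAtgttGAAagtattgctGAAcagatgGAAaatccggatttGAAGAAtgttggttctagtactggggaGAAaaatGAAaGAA
NIN, chr14:50758379-50758498, minus strand: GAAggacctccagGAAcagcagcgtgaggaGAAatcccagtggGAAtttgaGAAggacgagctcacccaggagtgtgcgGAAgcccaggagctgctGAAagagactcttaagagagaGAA
TOX2, chr20:44065712-44065831, plus strand: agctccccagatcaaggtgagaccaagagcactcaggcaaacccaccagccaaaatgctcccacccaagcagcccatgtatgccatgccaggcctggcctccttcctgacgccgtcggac
The CCDC112 window held 16 GAA, and 0.207% of the 5799 long exons with a sequence had a window of that length with as many. SIRT1 held 12, which 2% of the long exons reached, while SGO1 and CCPG1 held 10 each, which 6.28% reached. The TRA2A window held 5 GAA in 30 bases, reached by 6.21%. NIN held 8, which 17.6% reached, and the median long exon held 5 in its best window of 120 bases. The windows were chosen for their GAA, so they describe these exons and test nothing. Over the whole exon, the TRA2A exon carried 10.26 GAA per 100 bases, CCDC112 7.97, CCPG1 5.12, SIRT1 4.66, NIN 4.58 and SGO1 3.47, against a median of 1.9 over all long exons.

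The gene tables held 259885034 to 356831838 counts per library in the 200 nM experiment, 78562645 to 112813820 at 50 nM, 74978304 to 111134596 with siRNA and 75338390 to 109589376 in the PDX. Counts of TRA2B itself, in CPM (counts scaled to a common library total), were 192 to 206 in MDA-MB231 controls and 104 to 116 with 200 nM ASO-1570, and 151 to 161 against 75.7 to 77.5 in U87MG. At 50 nM they were 215 to 225 against 119 to 147 in MDA-MB231 and 162 to 169 against 74.2 to 79.4 in U87MG. The siRNA groups were lowest, at 21.4 to 22.7 against 186 to 196 in MDA-MB231 and 22.2 to 28.1 against 174 to 186 in U87MG. In the PDX the groups overlapped, with 78.3 to 130 in controls and 77.7 to 114 in treated tumours. Labels of the 50 nM and siRNA libraries call MDA-MB231 a glioblastoma cell type, but the epithelial markers followed the line name: KRT18 was at 357 to 928 CPM in MDA-MB231 and 0.157 to 2.09 in U87MG, and EPCAM at 24.9 to 37.9 against 0.369 to 0.7. Of the glial and neural markers, OLIG2 was at 1.54 to 3.35 CPM in U87MG against at most 0.0115 in MDA-MB231, NES at 8.72 to 44.7 against 11.4 to 40.1, GFAP at most 2.45 against 3.53, and SOX2 at most 0.0995 in U87MG. PDX tumours expressed human EPCAM at 161 to 759 CPM, with ESR1 at most 0.0186, and mitochondrial genes took 17.7 to 75.3% of their counts against 1.73 to 3.16% in the cell lines. This share was 17.7 to 53.9% in control tumours and 22.8 to 75.3% in treated ones.

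The splicing measure is PSI (percent spliced in), deposited as a fraction from 0 (exon always skipped) to 1 (always included). An event was tested when it had a value in every library of the groups compared and a range of at least 0.05 over them. An exon was called when the limma test over all splicing events of the table gave an adjusted p under 0.05 and the group means differed by at least 0.10. The number of reads behind a PSI value is unknown.

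Most of the long exons called in U87MG after ASO-1570 were less included, as were most called events of all kinds. At 200 nM, 560 of 2099 tested long exons were called, 428 lower, 121 higher and 11 in both directions in different events. Counted over events, 18.2% of long cassette events were lower and 5.22% higher, against 14.1% lower and 5.46% higher over all splicing events. Lower events were thus 77.7% of the called long events and 72.1% of all called events. At 50 nM, 329 of 1732 exons were called (244 lower, 82 higher, 3 both). Over events this was 12.4% lower and 4.33% higher, against 9.94% and 3.83% over all events. The 50 nM count was 140 to 387 with 1 library left out, and 140, 141 or 145 without any 1 of the 3 controls. Of the named exons called in U87MG, 54 of 58 at 200 nM and 30 of 41 at 50 nM were called with any 1 library left out.

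In MDA-MB231 far fewer exons passed. At 200 nM, 40 of 1581 tested long exons were called, 29 lower and 11 higher, or 1.5% lower and 0.549% higher of long events against 1.03% and 0.394% of all events. This count depended on single libraries: it was 87 without treated replicate 3 and 2 to 6 without any other 1 library, with 3 higher and 2 lower without control replicate 2. Of the 31 named exons called there, SUB1 alone was called in all of those fits, so the other MDA-MB231 calls given here rest on all libraries together. At 50 nM, 2 of 1317 were called, the exons of SUB1 and RPUSD4, both lower, where 0.122% of all events were lower and 0.0766% higher. That count was 0 to 15 with 1 library left out, the highest again without treated replicate 3, and without control replicate 3 it was 2 higher and 0 lower.

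With siRNA, no long exon was called in either line by limma, of 1441 tested in MDA-MB231 and 1625 in U87MG, nor was any event of any kind (0% called in each line). In the siRNA libraries 25.5 to 26.9% of PSI values were missing, against 0.379 to 0.815% in the cell line libraries of the ASO experiments. The part of missing values in the siRNA counts was not tested. With the spread estimated over all 4 groups of the table, 16 of 1097 tested long exons were called in MDA-MB231, 15 of them lower. In U87MG 15 of 1178 were called, 14 of them lower. Events of all kinds called in these fits numbered 112 in MDA-MB231 and 128 in U87MG. Their direction and the share they made of all events tested were not counted. At an unadjusted p under 0.05, 178 long events passed in MDA-MB231 (9.73%, against 5.89% of all events) and 165 in U87MG (8.04% against 5.35%). The mean of the siRNA effects of both lines was then tested, a comparison added after each line alone gave no call. It called 32 of 1406 long exons, 28 lower and 4 higher. Over events, 1.96% of long events were lower, against 0.415% of all events (0.185% higher). Long events made up 11.7% of all events called and 3.21% of all events tested. In the PDX no long exon of 1848 was called, nor any other event (0% by limma); 91 long events had an unadjusted p under 0.05 (3.94%, against 4.14% of all events), 11 of them lower.

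The share of events called was set beside exon length. In the siRNA mean, 2.19% of events with exons of 300 bases or more were called, against 0.717% at 100 to 299 bases, 0.533% at 31 to 99 and 0.634% at up to 30. In U87MG at 200 nM the shares from the longest to the shortest class were 23.4%, 23.1%, 20.7% and 17.6%, and at 50 nM they were 16.8%, 17.3%, 14.8% and 13%. The MDA-MB231 shares at 200 nM were 2.05%, 1.75%, 1.98% and 3.18%. These shares are descriptions: events of 1 gene share exons and libraries.

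**Figure D1:**
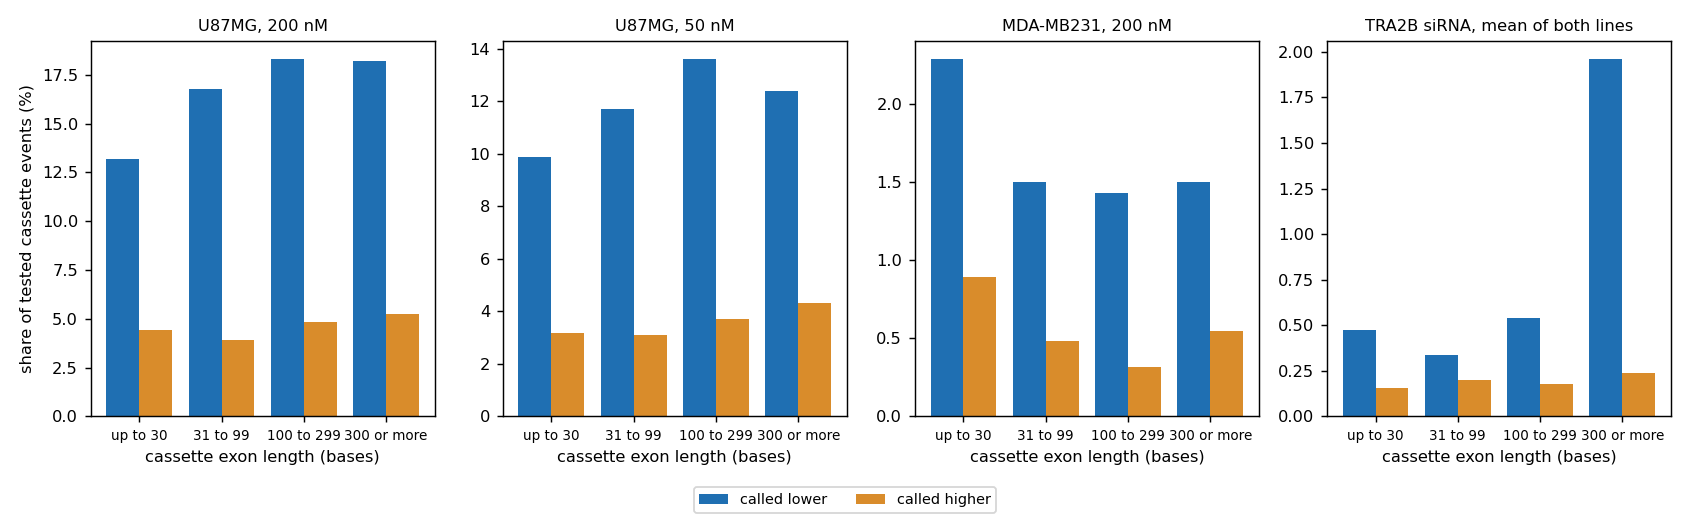
Share of tested cassette events called lower (blue) or higher (orange) by exon length, in 4 comparisons, each panel with its own axis from 0, in percent. In the siRNA mean the bar for exons of 300 bases or more called lower reaches 1.96%, above 0.541% at 100 to 299 bases, while in U87MG at 200 nM the same classes are at 18.2% and 18.3%.

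A long exon of TRA2A, the paralogue of TRA2B, was among those less included, in both of its forms. A 301-base exon (chr7:23522132-23522432, minus strand) and a 312-base form that ends 11 bases later at its 3′ side share their first bases, so they are 1 exon with a choice of end and not independent. Neither form is coding in GENCODE v29: the 312-base form lies in a transcript with no coding sequence, the 301-base form in a non-coding part of another. In U87MG controls of the 200 nM experiment the followed event of the 301-base form had PSI values of 0.818, 0.755 and 0.753, against 0.387, 0.402 and 0.411 with ASO-1570. At 50 nM the values were 0.9, 0.859 and 0.874 against 0.538, 0.535 and 0.507. The groups did not overlap at either dose, and inclusion fell by 0.375 (adjusted p = 0.00115) and by 0.351 (adjusted p = 0.00308).

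In MDA-MB231 the same event was at 0.884, 0.8 and 0.793 against 0.543, 0.663 and 0.608 at 200 nM, a difference of -0.221 that did not pass (adjusted p = 0.106). At 50 nM it was at 0.918, 0.969 and 0.963 against 0.816, 0.831 and 0.826 (adjusted p = 0.184). All treated libraries lay under all controls at both doses in this line, but the differences did not pass the test. The response at 50 nM differed between the lines, being 0.225 larger in U87MG (limma interaction, adjusted p = 0.0072). With siRNA the event was at 0.941, 0.891 and 0.919 against 0.654, 0.517 and 0.737 in U87MG, and at 0.898, 0.908 and 0.971 against 0.843, 0.692 and 0.839 in MDA-MB231. Neither siRNA difference was called.

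The followed event of the 312-base form had lower PSI than that of the 301-base form in the cell lines. These events start from different upstream exons, so the gap is not one between the exon ends. Another event of the 301-base form shares the upstream exon end of the 312-base event. In MDA-MB231 with siRNA its mean was 0.166 in controls and 0.0367 treated, beside 0.188 and 0.0393 for the 312-base form. In U87MG at 50 nM the 312-base form went from 0.321, 0.348 and 0.368 in controls to 0.192, 0.191 and 0.165, a fall of 0.163 (SE 0.0208, adjusted p = 0.00769). At 200 nM it was at 0.202, 0.192 and 0.194 against 0.108, 0.13 and 0.127; the adjusted p was 0.0144, but the difference of -0.0743 was under the minimum of 0.10. The siRNA values were 0.272, 0.324 and 0.304 against 0.065, 0.054 and 0.065 in U87MG, and 0.194, 0.182 and 0.189 against 0.036, 0.038 and 0.044 in MDA-MB231. In MDA-MB231 with ASO-1570 they were 0.096, 0.107 and 0.108 against 0.055, 0.081 and 0.062 at 200 nM (a difference of -0.0377, adjusted p = 0.354), and 0.208, 0.203 and 0.192 against 0.124, 0.111 and 0.11 at 50 nM (-0.086, adjusted p = 0.164). The groups did not overlap in any of these 6 comparisons, and the siRNA mean fell by 0.194 (SE 0.00941, adjusted p = 7.19e-05). A 726-base TRA2A exon that spans both forms and holds an annotated intron had no called difference: it differed in U87MG by 0.0223 at 200 nM (adjusted p = 0.495), -0.0233 at 50 nM (adjusted p = 0.447) and 0.027 with siRNA (adjusted p = 0.768), each in its event of smallest p. The TRA2A gene itself was higher in all 6 cell line comparisons, by log2 fold changes of 0.65 and 1.45 at 200 nM, 0.645 and 1.34 at 50 nM, and 1.05 and 1.55 with siRNA, for MDA-MB231 and U87MG (edgeR, adjusted p from 3.08e-09 to 3.34e-05). In U87MG with siRNA its level was 152 to 171 CPM against 55.1 to 56.7 in controls. In bulk RNA a change in the make-up of the cells and one in the RNA per cell cannot be told apart.

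Several of the exons that fell in the siRNA mean are wholly coding and lie in genes of cell division. Of 24 tested long exons of listed centrosome and mitosis genes, 5 were lower in that mean and none higher, or 20.8% against 2.28% of all long exons tested there (1.99% lower) and 0.6% of all events. The list was chosen with earlier results of these data known, and the mean was added after the single lines gave no call. These shares are thus a description and not a test. SGO1 encodes shugoshin, which protects the cohesion of sister chromatids at the centromere. Its 807-base exon (chr3:20174249-20175055, minus strand) had PSI values of 0.847, 0.89 and 0.846 in MDA-MB231 siRNA controls and 0.527, 0.544 and 0.537 with siRNA-TRA2B. In U87MG the values were 0.628, 0.678 and 0.645 against 0.34, 0.289 and 0.331. The siRNA mean fell by 0.328 (SE 0.0168, adjusted p = 8.21e-05), with no overlap in either line. With ASO-1570 the SGO1 exon differed less, by -0.064 and -0.105 in MDA-MB231 at 200 and 50 nM and by -0.0943 and -0.0903 in U87MG, none of them called.

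KIF23, a kinesin of the central spindle needed for cytokinesis, has a 312-base coding exon (chr15:69440768-69441079, plus strand) that was lower with either agent. In MDA-MB231 at 200 nM it was at 0.409, 0.384 and 0.367 against 0.153, 0.161 and 0.199, a fall of 0.216 (adjusted p = 0.0205). In U87MG it was at 0.37, 0.388 and 0.41 against 0.199, 0.125 and 0.124 at 200 nM (a fall of 0.24, adjusted p = 0.00312). At 50 nM the U87MG values were 0.422, 0.425 and 0.437 against 0.181, 0.128 and 0.131 (a fall of 0.281, adjusted p = 0.0023). The control values lay close together across lines and experiments, and every treated library was below every control. With siRNA the exon was at 0.428, 0.398 and 0.403 against 0.293, 0.271 and 0.259 in MDA-MB231, and at 0.383, 0.411 and 0.383 against 0.28, 0.23 and 0.216 in U87MG. The siRNA mean fell by 0.143 (SE 0.0138, adjusted p = 0.00217).

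CCDC112, a coiled-coil protein of centriolar satellites, has a 414-base coding exon (chr5:115271213-115271626, minus strand) that was nearly always included in controls. In U87MG at 50 nM it went from 0.899, 0.922 and 0.934 to 0.466, 0.478 and 0.445 (a fall of 0.455, adjusted p = 0.0016), and at 200 nM from 0.899, 0.928 and 0.95 to 0.585, 0.455 and 0.588 (a fall of 0.383, adjusted p = 0.00375). In MDA-MB231 it was at 0.943, 0.982 and 0.975 against 0.649, 0.74 and 0.762 at 200 nM (adjusted p = 0.0558) and at 0.97, 0.976 and 0.973 against 0.72, 0.739 and 0.786 at 50 nM (adjusted p = 0.08). The groups did not overlap in MDA-MB231 either, though neither difference passed. With siRNA the values were 0.978, 0.963 and 0.989 against 0.811, 0.762 and 0.722 in MDA-MB231, and 0.948, 1 and 0.98 against 0.662, 0.687 and 0.58 in U87MG. The siRNA mean fell by 0.272 (SE 0.023, adjusted p = 0.00117).

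MKI67, the gene of the proliferation antigen Ki-67, has a 1080-base coding exon (chr10:128114928-128116007, minus strand). It was at 0.653, 0.634 and 0.623 against 0.457, 0.474 and 0.468 with siRNA in MDA-MB231, and at 0.721, 0.768 and 0.773 against 0.669, 0.685 and 0.623 in U87MG (siRNA mean, a fall of 0.133, adjusted p = 0.00901). In U87MG at 200 nM ASO-1570 it fell by 0.131 (adjusted p = 0.0208), from 0.626, 0.618 and 0.603 to 0.483, 0.446 and 0.524. DEPDC1 has an 852-base coding exon (chr1:68482046-68482897, minus strand). Its siRNA values were 0.288, 0.312 and 0.342 against 0.151, 0.154 and 0.145 in MDA-MB231, and 0.161, 0.135 and 0.137 against 0.08, 0.065 and 0.071 in U87MG. The siRNA mean of DEPDC1 fell by 0.118 (SE 0.0103, adjusted p = 0.00137), and the groups did not overlap within a line.

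CCPG1, a receptor for autophagy of the endoplasmic reticulum, has a 1406-base coding exon (chr15:55359539-55360944, minus strand) that fell with ASO-1570 in U87MG. It went from 0.927, 0.933 and 0.92 to 0.703, 0.641 and 0.65 at 200 nM (a fall of 0.262, adjusted p = 0.00282), and from 0.938, 0.946 and 0.956 to 0.717, 0.646 and 0.759 at 50 nM (a fall of 0.239, adjusted p = 0.0128). In MDA-MB231 it differed by -0.023 at 200 nM (adjusted p = 0.544). The difference between the lines passed at 200 nM (0.239) and at 50 nM (0.233), the U87MG response being the larger. With siRNA it was at 0.99, 0.993 and 0.986 against 0.921, 0.93 and 0.942 in MDA-MB231 and at 0.98, 0.975 and 0.971 against 0.851, 0.819 and 0.808 in U87MG. The siRNA mean fell by 0.104 (adjusted p = 0.00158), close to the minimum difference, and was called in 11 of 12 fits with 1 library left out.

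FXR1, an RNA-binding relative of the fragile X protein, has a 344-base exon without coding sequence (chr3:180914652-180914995, plus strand). With siRNA it was at 0.645, 0.544 and 0.681 against 0.314, 0.308 and 0.321 in MDA-MB231, and at 0.591, 0.63 and 0.715 against 0.394, 0.251 and 0.36 in U87MG (siRNA mean, a fall of 0.31, adjusted p = 0.00355). With ASO-1570 at 200 nM it was at 0.673, 0.555 and 0.86 against 0.203, 0.273 and 0.358 in MDA-MB231 (adjusted p = 0.09) and at 0.371, 0.65 and 0.551 against 0.535, 0.557 and 0.516 in U87MG. The U87MG groups overlapped, and the lines differed by -0.43 in this effect (limma interaction, adjusted p = 0.0436).

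TOX2, an HMG-box transcription factor gene whose 396-base coding exon (chr20:44065712-44066107, plus strand) holds no GAA, also passed in the siRNA mean. Its siRNA values were 0.921, 0.92 and 0.952 against 0.468, 0.584 and 0.769 in MDA-MB231, and 0.317, 0.337 and 0.353 against 0.179, 0.123 and 0.195 in U87MG (a fall of 0.247, SE 0.0429, adjusted p = 0.0304). This call was the less stable one: it held in 2 of 12 fits with 1 library left out. Of the 32 exons called in the siRNA mean, 19 were called in every such fit, SGO1, KIF23, CCDC112, MKI67, DEPDC1, FXR1 and both TRA2A forms among them. The 4 higher exons (ZNF862 by 0.105, HMGN1 by 0.13, POLR2J3 by 0.132 and ZSCAN23 by 0.248) were called in at most 2 of 12.

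**Figure D2:**
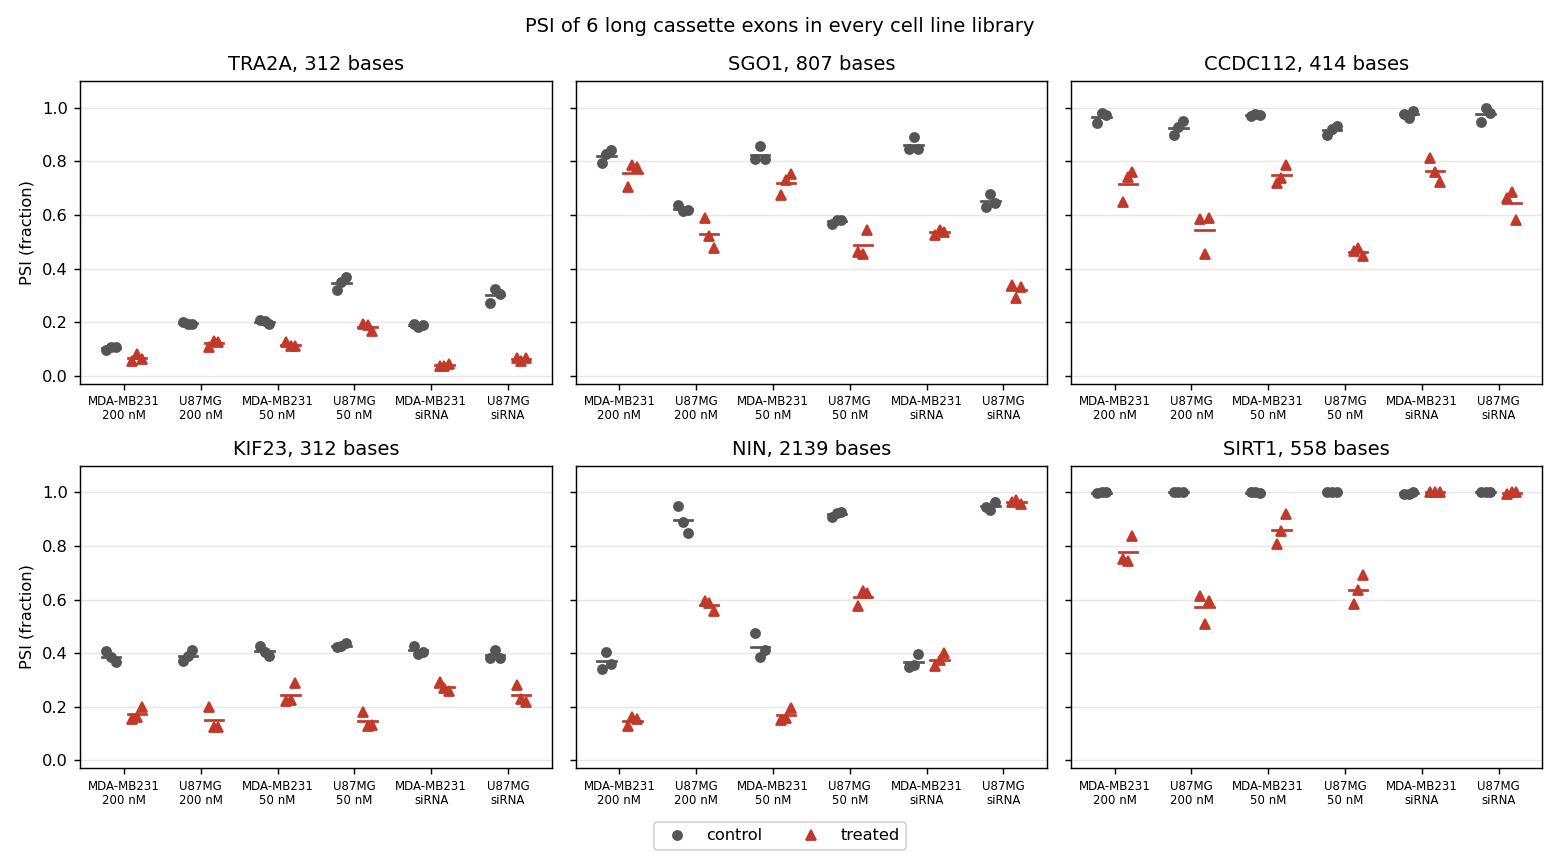
PSI (fraction, from 0 to 1) of the 312-base TRA2A exon, which is not coding, and 5 coding long exons in each library of the cell line comparisons; circles are controls, triangles treated libraries and lines group means. KIF23 is lower in the treated libraries of every comparison, whereas NIN and SIRT1 are lower with ASO-1570 and level with their controls with siRNA.

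The exons lower in the siRNA mean were also mostly lower in the ASO experiments, which have their own control libraries. Of the 28, 24 were lower in U87MG at 200 nM (14 called) and 24 of the 26 tested there at 50 nM (13 called). Of all long events tested in both comparisons, 57.5% were lower at either dose, and 16.7% and 10.5% were called lower. In MDA-MB231, 19 of 26 were lower at 200 nM (5 called) and 20 of 24 at 50 nM (none called). Of all long events tested in both, 56.5% and 55.7% were lower, and 1.64% and 0% were called lower. Their median differences were -0.121 and -0.136 in U87MG and -0.058 and -0.0602 in MDA-MB231, at 200 and 50 nM. Several exons of the set share a gene, as for TRA2A, SMC4, PCMTD1 and KLHL8, so they are not independent.

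In sequence, the exons lower in the siRNA mean had a median of 3.36 GAA per 100 bases (quartiles 2.34 and 4.29) and a GC content of 40.6%. All long exons tested there had 1.86 GAA per 100 bases (quartiles 1.19 and 2.73) and 51.5% GC, so GAA and base composition moved together. Of the 28, 12 were wholly coding (42.9%, against 31.7% of all long exons tested there), and 16 had a length that is a multiple of 3 (57.1% against 40.4%). None lay only in transcripts annotated for nonsense-mediated decay (NMD), with or without other non-coding types, against 13.9% of all tested. The exons lower with ASO-1570 were nearer to the rest: medians were 1.89 against 1.85 in U87MG at 200 nM, 2.2 against 1.88 in U87MG at 50 nM, and 2.41 against 1.92 in MDA-MB231 at 200 nM. No test was made of these features.

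**Figure D3:**
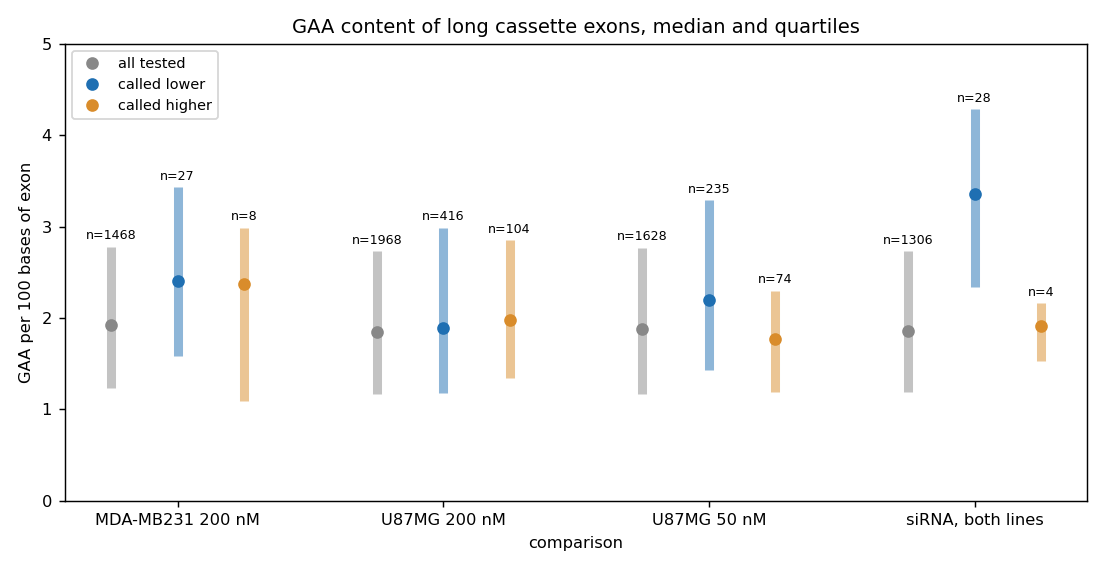
GAA per 100 bases of exon, median (point) and quartiles (line), for long exons called lower, called higher and all tested in 4 comparisons. The exons lower in the siRNA mean stand highest, at a median of 3.36 against 1.86 for all tested, while those lower in U87MG at 200 nM are at 1.89 against 1.85.

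Inclusion in the controls also differed between the called sets, and an exon at 1 can only fall. In U87MG at 200 nM the exons called lower had a median control PSI of 0.982 and those called higher one of 0.373, against 0.947 over all tested. At 50 nM the medians were 0.978, 0.205 and 0.94, and in MDA-MB231 at 200 nM they were 0.799, 0.223 and 0.925. In U87MG at 200 nM, 173 of the 428 lower exons were wholly coding (40.4%, against 34.7% of all tested) and 25 of the 121 higher ones (20.7%). An annotated intron lay inside 114 of these lower exons (26.6%) and 12 of the higher ones (9.92%), against 22.5% of all tested. In the siRNA mean 4 of the 28 lower exons held one (14.3%, against 19.4%). The exons of CCDC150, CLK3, CCDC14, RBM4 and FAM86EP given here are among those that hold one. The part of intron retention in their PSI was not tested.

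The coding exons of NIN and SIRT1 fell with ASO-1570 and had no called difference with siRNA. NIN encodes ninein, which anchors microtubules at the centrosome, and its 2139-base coding exon (chr14:50756492-50758630, minus strand) has different base levels in the lines. In MDA-MB231 at 200 nM it went from 0.342, 0.404 and 0.36 to 0.129, 0.162 and 0.153 (a fall of 0.221, adjusted p = 0.022), and in U87MG from 0.949, 0.889 and 0.847 to 0.593, 0.588 and 0.558 (a fall of 0.315, adjusted p = 0.00328). At 50 nM in U87MG it fell by 0.309 (adjusted p = 0.00439), from 0.909, 0.922 and 0.926 to 0.576, 0.631 and 0.624. With siRNA the values were 0.349, 0.356 and 0.396 against 0.35, 0.373 and 0.4 in MDA-MB231, and 0.945, 0.935 and 0.965 against 0.964, 0.972 and 0.957 in U87MG. The siRNA groups overlapped in MDA-MB231 and differed by 0.016 in U87MG, where the range was under the minimum for testing.

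SIRT1, a NAD-dependent deacetylase, has a 558-base coding exon (chr10:67912474-67913031, plus strand) that controls included almost always. In U87MG at 200 nM it went from 1 in all 3 controls to 0.613, 0.51 and 0.595 (a fall of 0.427, adjusted p = 0.00143), and at 50 nM from 1 in all 3 to 0.584, 0.634 and 0.69 (a fall of 0.364, adjusted p = 0.00397). MDA-MB231 at 200 nM went from 0.997, 1 and 1 to 0.751, 0.745 and 0.836 (a fall of 0.222, adjusted p = 0.0453). Every siRNA library of either line, control or treated, was at 0.993 or above. The difference between ASO-1570 and siRNA was not tested for any exon: agent, dose and experiment changed together and cannot be told apart.

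Across the 6 cell line comparisons, 27 long exons were called in the same direction in 3 or more, 21 lower and 6 higher. SUB1 and RPUSD4 were called in 4, the ASO comparisons of both lines at both doses, and the others in 3. No event of any kind was called with siRNA in a single line, so only the ASO comparisons could contribute. In MDA-MB231 at 50 nM SUB1 and RPUSD4 were the only long exons called. The others were thus called in U87MG at both doses and in MDA-MB231 at 200 nM. They include 2 overlapping RRP8 exons. The share of all events that recurred in this way was not counted. SUB1 encodes a transcriptional coactivator, and its 302-base exon (chr5:32594571-32594872, plus strand) lies in NMD transcripts and in none annotated as protein-coding. In MDA-MB231 it went from 0.968, 0.939 and 0.846 to 0.075, 0.069 and 0.12 at 200 nM (a fall of 0.83, SE 0.039, adjusted p = 0.00249), and from 0.886, 0.932 and 0.739 to 0.038, 0.062 and 0.22 at 50 nM (adjusted p = 0.0377). In U87MG it went from 0.602, 0.557 and 0.527 to 0.011, 0.011 and 0.01 at 200 nM (a fall of 0.551, adjusted p = 0.000257), and from 0.698, 0.468 and 0.349 to 0.007, 0.006 and 0.007 at 50 nM (adjusted p = 0.0171). The exon was thus at 0.22 or less in all 12 treated ASO libraries. The MDA-MB231 call at 50 nM held in 1 of 6 fits with 1 library left out, and the U87MG call at 50 nM in 3 of 6. In U87MG with siRNA the values were 0.479, 0.623 and 0.445 against 0.142, 0.822 and 0.435, which overlapped.

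RPUSD4 encodes a mitochondrial pseudouridine synthase, and its 300-base exon (chr11:126206254-126206553, minus strand) lies in a non-coding transcript. In U87MG it went from 1 in every control to 0.453, 0.129 and 0.201 at 200 nM (a fall of 0.739, adjusted p = 0.0034) and to 0.249, 0.378 and 0.453 at 50 nM (a fall of 0.64, adjusted p = 0.00307). In MDA-MB231 it went from 0.951, 1 and 1 to 0.441, 0.419 and 0.655 at 200 nM (a fall of 0.479, adjusted p = 0.0439) and from 1 in every control to 0.762, 0.777 and 0.768 at 50 nM (a fall of 0.231, adjusted p = 0.0452, called in 1 of 6 fits with 1 library left out). The fall at 50 nM was 0.409 larger in U87MG by the interaction test.

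SMC4 encodes a core subunit of condensin, which compacts chromosomes, and 3 of its long exons were named here. Its 524-base exon (chr3:160412326-160412849, plus strand), in a non-coding transcript and holding an annotated intron, went in U87MG from 0.954, 0.909 and 1 to 0.143, 0.117 and 0.121 at 200 nM (a fall of 0.827, adjusted p = 0.00019). At 50 nM it went from 1, 0.982 and 1 to 0.156, 0.133 and 0.158 (a fall of 0.845, adjusted p = 0.000344). In MDA-MB231 it went from 1, 0.909 and 1 to 0.38, 0.548 and 0.592 at 200 nM (adjusted p = 0.0415). With siRNA it differed by -0.00533 in MDA-MB231 and -0.032 in U87MG. The other 2 exons, of 338 and 366 bases, overlap each other, are coding in part and fell in the siRNA mean by 0.194 (adjusted p = 0.0184) and by 0.178 (adjusted p = 0.0173), each called in 12 of 12 fits with 1 library left out. The 338-base exon also fell in U87MG at 200 nM, by 0.551 (adjusted p = 0.0025). The SMC4 gene was also lower with ASO-1570, by log2 fold changes of -1.37 and -1.16 in MDA-MB231 and -1.66 and -1.75 in U87MG (edgeR, all called), at 108 to 131 CPM against 362 to 383 in U87MG at 200 nM. With siRNA SMC4 did not pass (0.108 and -0.168).

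PCNX4, a gene of the pecanex family, has an exon that fell with ASO-1570 in both lines and in the siRNA mean. The 742-base exon (chr14:60107586-60108327, plus strand), coding in part, went in U87MG from 0.753, 0.733 and 0.753 to 0.163, 0.094 and 0.126 at 200 nM (a fall of 0.619, adjusted p = 0.000221) and from 0.804, 0.789 and 0.8 to 0.279, 0.191 and 0.278 at 50 nM (a fall of 0.548). MDA-MB231 at 200 nM went from 0.505, 0.491 and 0.475 to 0.154, 0.171 and 0.234 (a fall of 0.304, adjusted p = 0.0145). With siRNA it was at 0.591, 0.541 and 0.596 against 0.416, 0.414 and 0.469 in MDA-MB231 and at 0.835, 0.833 and 0.811 against 0.702, 0.698 and 0.745 in U87MG. The siRNA mean fell by 0.127, a smaller difference than either ASO dose gave in U87MG. KIF23, PREPL and IFI44 likewise were called in 3 ASO comparisons and in the siRNA mean.

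PREPL, a serine hydrolase gene, has a 542-base exon (chr2:44359497-44360038, minus strand) that was at 0.478, 0.494 and 0.51 against 0.2, 0.15 and 0.169 in U87MG at 200 nM (a fall of 0.321, adjusted p = 0.000794). In MDA-MB231 it was at 0.811, 0.782 and 0.804 against 0.505, 0.496 and 0.514 (a fall of 0.294, adjusted p = 0.0193). IFI44, an interferon-induced gene, has a 467-base exon (chr1:78650186-78650652, plus strand) that fell by 0.35 in U87MG and by 0.321 in MDA-MB231 at 200 nM, from 0.878, 0.889 and 0.884 to 0.613, 0.421 and 0.568 in U87MG. No line difference was called for the followed event of either exon.

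2 of the 6 exons that rose in 3 comparisons lie in NMD transcripts and in none annotated as protein-coding. CCDC150 codes for a coiled-coil protein, and its 669-base exon (chr2:196729193-196729861, plus strand) holds an annotated intron. The exon went in U87MG from 0.216, 0.189 and 0.221 to 0.953, 0.946 and 0.952 at 200 nM (a rise of 0.742, adjusted p = 0.000131). At 50 nM it went from 0.244, 0.295 and 0.298 to 1 in all 3 treated libraries (a rise of 0.721, adjusted p = 0.000609), and in MDA-MB231 at 200 nM from 0.346, 0.341 and 0.544 to 0.855, 0.922 and 1 (a rise of 0.515, adjusted p = 0.0391). The CCDC150 gene was higher as well, by log2 fold changes of 0.511 in MDA-MB231 and 0.487 in U87MG at 200 nM. RBM47, itself an RNA-binding splicing regulator, has a 445-base exon (chr4:40436441-40436885, minus strand). It rose in U87MG from 0.251, 0.204 and 0.253 to 0.689, 0.801 and 0.819 at 200 nM (by 0.534, adjusted p = 0.00121), and in MDA-MB231 from 0.308, 0.335 and 0.311 to 0.665, 0.606 and 0.64 (by 0.319, adjusted p = 0.0108). Control levels of both exons differed between experiments. In the U87MG siRNA experiment CCDC150 was at 1 in all 3 controls and at 0.761, 1 and 1 with siRNA-TRA2B, and RBM47 at 0.806, 0.679 and 0.905 against 0.859, 0.788 and 0.56. The other 4 that rose were exons of SGK3, FUBP3, TXNRD1 and AMPD2.

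**Figure D4:**
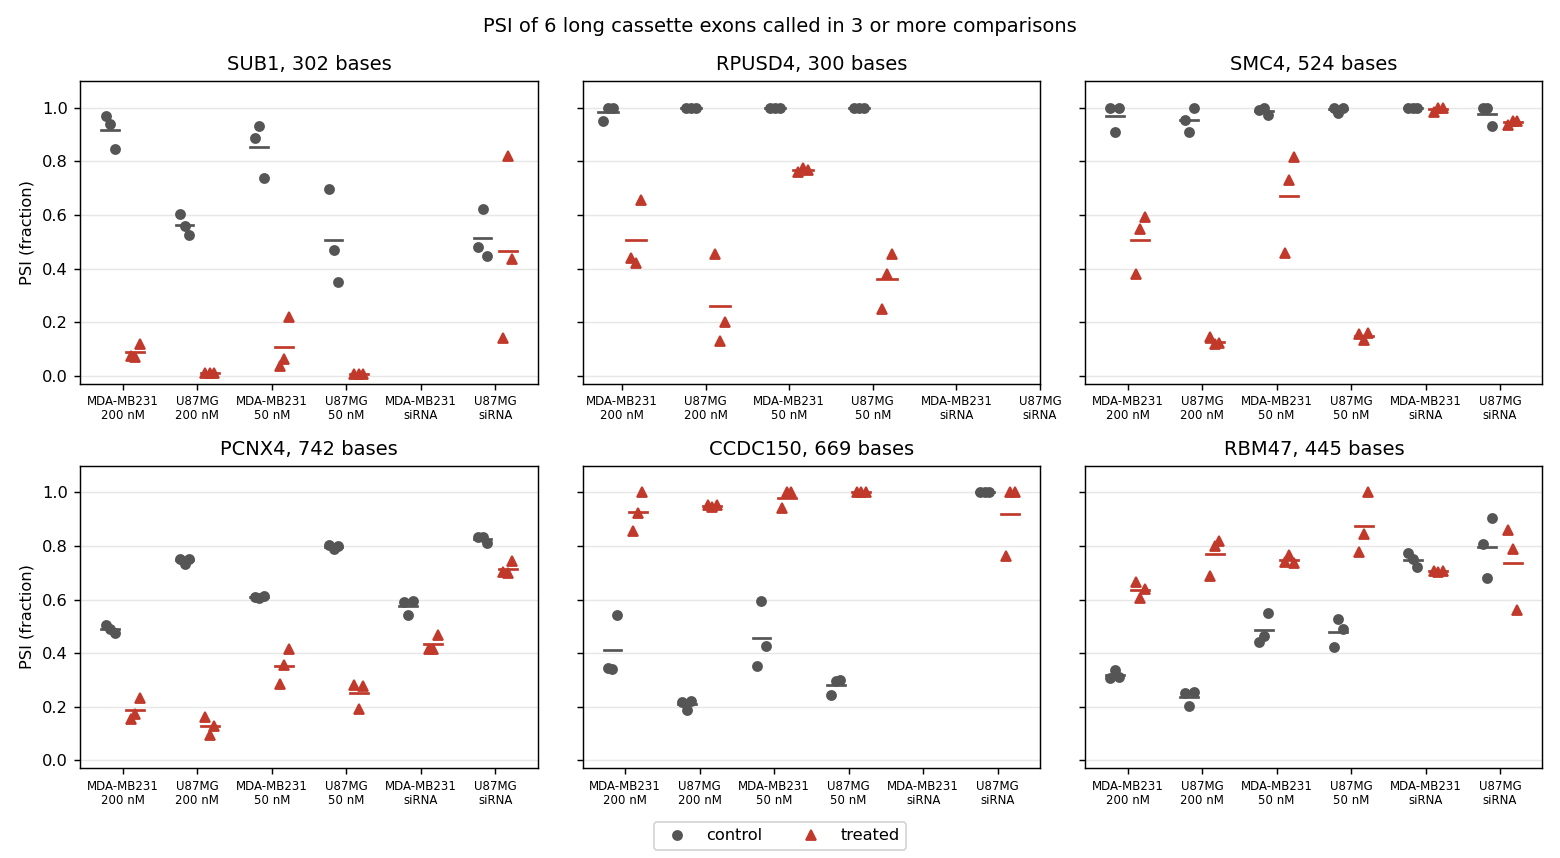
PSI (fraction, from 0 to 1) of selected long exons called in 3 or more cell line comparisons, in each library (circles controls, triangles treated, lines group means), with no value for RPUSD4 with siRNA and for SUB1 and CCDC150 with siRNA in MDA-MB231. The exons of SUB1, RPUSD4, SMC4 and PCNX4 are lower with ASO-1570 and those of CCDC150 and RBM47 higher, and SUB1 in U87MG at 200 nM is at 0.011, 0.011 and 0.01.

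Both lines were compared directly by an interaction test, the MDA-MB231 effect minus the U87MG effect. At 200 nM, 329 of 2292 long exons differed, 272 with a positive value, 54 with a negative one and 3 with both (6.03% and 2.05% of all events were called). In 266 of them U87MG showed the larger fall, in 49 the larger rise, and in 14 MDA-MB231 moved more. The median absolute difference was 0.215 in U87MG and 0.0297 in MDA-MB231. The effects had opposite signs in 84, of which 14 were over 0.1 in both lines. At 50 nM, 148 of 1876 differed, 121 positive and 27 negative (3.68% and 1.21% of all events), with medians of 0.234 and 0.0293. The 50 nM count was 80 to 96 without any 1 control library of either line, 98 and 94 without MDA-MB231 treated replicates 2 and 3, and 260 without U87MG treated replicate 3. With siRNA no long exon of 1406 differed between the lines, and 0.00571% of all events did. Of the 40 exons called in MDA-MB231 at 200 nM, 36 (90%) were called in U87MG too, all in the same direction, and these were 6.43% of the U87MG exons. Over all long exons tested in U87MG at 200 nM, 26.7% were called. The overlap over all events was not counted.

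Among the named line differences, CHRNA10, a nicotinic receptor subunit gene, had the smallest p at 200 nM. Its 533-base exon was at 1 in every U87MG control and at 0.365, 0.338 and 0.33 with 200 nM ASO-1570 (a fall of 0.656), with a difference of 0.029 in MDA-MB231. The interaction was 0.685 (adjusted p = 8.08e-05). BCL9, a coactivator of Wnt signalling, has a 312-base exon that fell in U87MG from 1, 1 and 0.994 to 0.702, 0.683 and 0.65, while treated MDA-MB231 was at 0.993, 0.977 and 0.965 (interaction 0.298). ZFP69, a zinc finger gene, has a 453-base exon that went from 1 in every U87MG control to 0.749, 0.736 and 0.738, against 1, 1 and 0.971 in treated MDA-MB231 (interaction 0.249). For these exons the MDA-MB231 libraries were near full inclusion in both groups. At 50 nM the exons of SH2B1 (0.253), RO60 (0.487) and OXSM (0.182) had the smallest p.

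**Figure D5:**
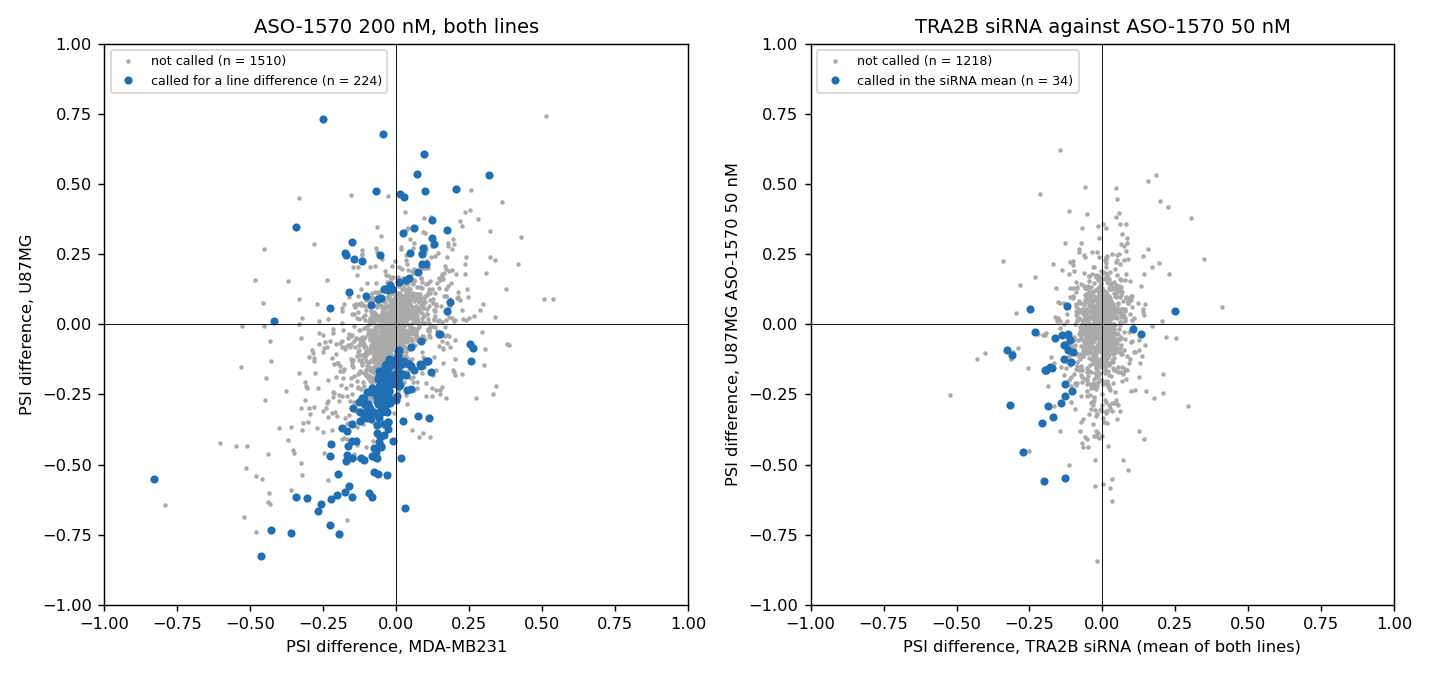
Difference in PSI (treated minus control, fraction) of long cassette events, MDA-MB231 against U87MG at 200 nM on the left, and the siRNA mean against U87MG at 50 nM on the right. On the left 224 of 1734 events are called for a line difference, many of them low on the U87MG axis and near 0 on the MDA-MB231 axis; on the right 34 of 1252 are called in the siRNA mean.

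Gene groups were counted over the long exons of listed genes, lists that were chosen with earlier results of these data known. Over all long exons, counted the same way, 26.7% were called in U87MG at 200 nM, 19% at 50 nM, 2.53% in MDA-MB231 at 200 nM and 2.28% in the siRNA mean. In U87MG at 200 nM the median difference was -0.041 over all long events and -0.0273 over all events. Of 11 tested exons of hnRNP and other splicing regulator genes, 63.6% were called in U87MG at 200 nM (5 lower and 3 higher, with 1 exon counted in both, median -0.086). At 50 nM 70% of 10 were called; of all events 19.6% were called at 200 nM and 13.8% at 50 nM. MBNL1, a regulator of muscle and developmental splicing, has a 963-base exon coding in part that went from 0.98, 0.969 and 0.968 to 0.543, 0.47 and 0.498 at 200 nM (a fall of 0.469, adjusted p = 0.000801). RBM39 (by 0.156) and RBM4 (by 0.217) had long exons that rose. Of the 8 exons of this group tested in the siRNA mean, none was called. SR protein and TRA2 genes had 6 tested long exons in U87MG at 200 nM, of which 2 were lower and none higher, the 301-base TRA2A exon and a 1359-base exon of SRSF5 (a fall of 0.108, adjusted p = 0.0191). In the spliceosome and SR kinase list, 2 of 11 exons were lower, CLK3 and ACIN1. CLK3 is a kinase of SR proteins, and its 441-base exon went from 0.993, 0.99 and 0.992 to 0.478, 0.336 and 0.434 in U87MG (a fall of 0.576, adjusted p = 0.00112). Its siRNA values were 0.983 or above in U87MG.

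Known TRA2 targets, a list of 11 genes, had 10 tested long exons in U87MG at 200 nM, of which 7 were lower and none higher (median -0.2). In MDA-MB231 at 200 nM 3 of 9 were lower, and in the siRNA mean 4 of 9. Of all long exons tested, 428 of 2099, 29 of 1581 and 28 of 1406 were called lower in these comparisons. These exons of the list belong to 5 genes, so several share a gene. HIPK3, a protein kinase gene of this list, has a 1099-base exon that was at 0.953, 0.951 and 1 against 0.74, 0.677 and 0.714 in U87MG at 200 nM (a fall of 0.258), and at 1, 1 and 0.984 against 0.904, 0.927 and 0.946 at 50 nM, a difference under the minimum. NASP, a histone chaperone gene with a 1017-base coding exon (chr1:45607321-45608337, plus strand), was at 0.203, 0.224 and 0.234 against 0.128, 0.111 and 0.117 in U87MG at 200 nM (a fall of 0.102, adjusted p = 0.00731). The NASP call rested on single libraries, held in 3 of 6 fits with 1 left out, and its other cell line differences lay between -0.09 and -0.045.

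Centrosome and mitosis genes had 41 tested long exons in U87MG at 200 nM, 13 lower and 1 higher (34.1%, median -0.055). In MDA-MB231 5 of 33 were lower, where 1.42% of all events were called. Besides KIF23 and NIN, the list's named exons included CCDC14, lower by 0.475 in U87MG at 200 nM, and CCP110, higher by 0.397 at 50 nM. DNA repair and replication genes had 8 lower and 2 higher of 27 in U87MG at 200 nM (37%, median -0.1). ATR, the kinase that signals stalled replication, has an 878-base coding exon that went from 0.986, 0.991 and 0.965 to 0.816, 0.75 and 0.789 (a fall of 0.196, adjusted p = 0.00418). MBD4, a glycosylase that removes mismatched thymine, has an 866-base coding exon that went from 0.988, 0.998 and 0.995 to 0.76, 0.698 and 0.695 (a fall of 0.276). In the siRNA mean 1 of 20 exons of this list was lower.

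Chromatin regulators had 9 lower and 2 higher of 53 in U87MG at 200 nM (20.8%, median -0.0463), where 26.7% of all long exons were called. BAZ2B, a bromodomain protein gene, has a 311-base coding exon that went from 1 in every control to 0.349, 0.298 and 0.362 (a fall of 0.664, adjusted p = 0.000281). SMARCB1, a core subunit of the SWI/SNF remodelling complex, has a 1021-base exon in non-coding sequence that went from 0.982, 1 and 0.997 to 0.331, 0.208 and 0.24 (a fall of 0.733, adjusted p = 0.000471). In MDA-MB231 SMARCB1 was at 1, 0.992 and 0.994 against 0.541, 0.442 and 0.716 (adjusted p = 0.0611), with no overlap. None of the 29 exons of this list was called in the siRNA mean. Cytoskeleton and adhesion genes had 5 lower and 4 higher of 31 (29%, median -0.041), and zinc finger transcription factor genes 22 lower and 8 higher of 98 (30.6%, median -0.0415). In the siRNA mean these lists had 0 of 23 and 3 of 69.

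Host genes of lower exons were called in both directions. A host gene was counted for each of its named exons, so RRP8, MBD4 and SMC4 entered repeatedly in U87MG at 200 nM. The shares over all tested genes hold no such repeats. Of 45 named exons that were lower in U87MG at 200 nM, the host gene was called higher for 17, lower for 14 and not called for 14 (edgeR), where 25.8% of all tested genes were higher and 23.9% lower. At 50 nM the counts were 7, 13 and 9 of 29, with 27.9% of all genes higher and 26.7% lower. In MDA-MB231 at 200 nM they were 4, 7 and 13 of 24, with 11.7% of all genes higher and 13.6% lower. KIF23 was lower with ASO-1570 by log2 fold changes of -0.722 and -1.6 at 200 nM and -0.506 and -1.62 at 50 nM in MDA-MB231 and U87MG, SGO1 by -0.458, -0.937, -0.432 and -1, and MKI67 by -1.02, -1.26, -0.525 and -1.29. With siRNA these genes gave 0.119 and -0.0435 for KIF23, 0.222 and -0.00955 for SGO1, and 0.187 and -0.255 for MKI67, in MDA-MB231 and U87MG. The SGO1 exon thus fell in the siRNA mean while its gene was higher in MDA-MB231 (adjusted p = 0.00811) and was not called in U87MG (adjusted p = 0.957). SIRT1, RPUSD4 and CCDC112 showed host differences that passed in at most 1 comparison, CCDC112 in U87MG at 50 nM (-0.222, adjusted p = 0.0152). The part of gene level in exon inclusion was not tested.

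In the PDX no long exon passed. The 4 exons with the smallest p and no overlap were those of FAM86EP, FYB2, GTF3C2 and PVT1, all higher in treated tumours with adjusted p = 0.763. FAM86EP was at 0.668, 0.66, 0.529, 0.533 and 0.684 in controls and at 1, 0.739, 1, 1 and 1 in treated tumours. The PCNX4 exon was at 0.583, 0.799, 1, 0.722 and 0.814 against 0.435, 0.756, 0.218, 0.501 and 0.1, a difference of -0.382 (SE 0.124) with overlap. KIF23 was at 0.328 to 0.437 against 0.269 to 0.395, and SGO1 differed by 0.0118. The 301-base and 312-base TRA2A forms were higher in treated tumours, by 0.157 and 0.192, and NASP by 0.0228, all with overlap and none called. In these tumours TRA2B counts also overlapped between the groups, and 1 to 5.56% of PSI values were missing in controls and 1.04 to 10.9% in treated tumours. Mitochondrial genes took up to 53.9% of counts in controls and up to 75.3% in treated tumours. The part of these in the result was not tested.

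The effects of the experiments were set against each other over long events, as a description over events that share libraries within a comparison. Differences in U87MG at 200 nM and 50 nM, from separate control libraries, had a Pearson r of 0.81 over 1730 events, and those of MDA-MB231 0.53 over 1243. Between the lines r was 0.485 at 200 nM, 0.398 at 50 nM and 0.28 with siRNA. Between 50 nM ASO-1570 and siRNA it was 0.134 in U87MG and 0.122 in MDA-MB231, and between U87MG at 50 nM and the PDX 0.0879. Of the exons called in U87MG, 267 were called at both doses, 47.7% of those at 200 nM and 81.2% of those at 50 nM, and 263 of them in the same direction. Over all long exons tested in U87MG, 26.7% were called at 200 nM and 19% at 50 nM. Among the exons whose 6 differences were most like those of the 301-base TRA2A exon, of 537 with a value in all 36 libraries and a difference of at least 0.10 in 2 or more comparisons, were those of RO60 (r = 0.977), FAM192A (0.947), COX10 (0.937) and JPX (0.936). RO60, for instance, differed by -0.598 and -0.559 in U87MG and by -0.175 and -0.0723 in MDA-MB231, at 200 and 50 nM.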

How the data were processed

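RNA was sequenced as stranded, paired 151-base reads, per the labels' protocols. The submitters' processing notes name FastQC, MultiQC, Trimmomatic, STAR and StringTie and the build GRCh38; versions, the settings of the splicing caller (rMATS by the deposited tables' names) and read filters are not given in the sources used here. The deposited splicing tables hold PSI as a fraction for each event and library, with no read counts, so the depth behind a value is unknown. The deposited gene tables hold raw counts per gene.

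Exon length was the span between both exon coordinates. PSI was tested with limma 3.58.1 (trend) on all event types of a table, treated against control within a line and experiment, with Benjamini-Hochberg adjustment over all events tested; exons were called as the report states. The line difference was an interaction term over 4 groups. Host gene counts were tested with edgeR 4.0.16 (filterByExpr, TMM, quasi-likelihood) over all groups of a table, and CPM are TMM-normalised; 115 of 117 genes were matched. R 4.3.3, the data.table package (1.17.8), DESeq2 1.42.0, Python 3.11.15, pandas 2.3.3 and matplotlib 3.10.9 were used. The scripts were tested on simulated data. Annotation and sequence came from GENCODE v29 transcripts, which gave a sequence for 5799 exons.

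The members and gene lists were chosen with earlier results of these data known. Exons were named by a rule: the 6 greatest called rises and falls of each comparison without overlap, exons called in 3 or more comparisons, up to 4 of each list by smallest p, any of TRA2A, NASP and SRSF3, and the 3 smallest p of each line difference; where fewer than 3 were called, the 4 smallest p. The siRNA mean, the exons named through it, those shown library by library and the sequence windows were chosen after values were seen. For an exon in several events, 1 event was followed through all experiments, so a value may differ from that of another event of the same exon. Alternatives covered the model, filters, thresholds, scale, event set and each library left out. Replicate numbers were not used to pair the samples in the main fits. Some items are not reported here.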

Additional observations from a re-analysis of the deposited data

Results flagged for a closer look

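In 5 long exons 1 treated PDX tumour stood apart from the other 4, by a rule that chance alone meets in about 1 in 20 groups of freely varying values. That rate does not hold for FAM86EP, RBM47 and SMC4, whose other 4 tumours sat at the upper limit of 1. It may not hold for HIPK3 and TRA2A either, whose other 4 tumours lay close under that limit, at 0.959 or above and 0.899 or above. The tumour furthest away had a PSI of 0.739 for the 1077-base exon of FAM86EP (all others at 1), 0.531 for the 1099-base exon of HIPK3 (nearest other 0.959), 0.83 for the 445-base exon of RBM47 (nearest 1), 0.914 for the 524-base exon of SMC4 (nearest 1) and 0.616 for the 301-base exon of TRA2A (nearest 0.899).

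The effect of ASO-1570 differed between the lines for named exons by the limma interaction test, given here as the MDA-MB231 effect minus the U87MG effect, so a positive value goes with a larger fall, or a smaller rise, in U87MG. The exons described with siRNA data gave 0.225 for the 301-base exon of TRA2A, 0.231 for CCDC112 and 0.12 for KIF23 (adjusted p = 0.0499), all at 50 nM. CCPG1 gave 0.239 at 200 nM and 0.233 at 50 nM, SIRT1 0.206 and 0.225, and MKI67 0.158 at 200 nM. FXR1 gave -0.43 at 200 nM, with an effect of -0.418 in MDA-MB231 and 0.012 in U87MG.

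Among exons called in 3 or more comparisons, PCNX4 gave 0.315 at 200 nM and 0.291 at 50 nM, and the 524-base exon of SMC4 0.364 and 0.527. RPUSD4 gave 0.409 at 50 nM, the 364-base exon of RRP8 0.277 and 0.235. SUB1 gave -0.278 at 200 nM, with a fall of 0.83 in MDA-MB231 and of 0.551 in U87MG, where controls started lower. RBM47 gave -0.215 at 200 nM, where both lines rose.

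Of the exons called in U87MG, BAZ2B gave 0.395 at 200 nM and 0.488 at 50 nM, BCL9 0.298 and 0.252, ZFP69 0.249 and 0.22, SMARCB1 0.304 and 0.377, CLK3 0.414 and 0.333, and the 866-base exon of MBD4 0.15 and 0.147. At 200 nM alone CHRNA10 gave 0.685, ATR 0.182 and MBNL1 0.241. Adjusted p-values of these differences ran from 8.08e-05 for CHRNA10 to 0.0499 for KIF23.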

How the results depend on the processing

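No called difference of a named exon or host gene changed sign under any setting tried, but the balance of calls in MDA-MB231 did: 11 higher and 29 lower at 200 nM became 3 and 2 without control replicate 2, and 0 and 2 at 50 nM became 2 and 0 without control replicate 3. In MDA-MB231 at 200 nM the 40 called long exons became 78 on a logit scale, 16 with no range filter, 23 with a range of at least 0.10, 7 with cassette events only, and 121 with the spread estimated over all 4 groups of the table; leaving out 1 library gave 2 to 87. At 50 nM the 2 became 5 without trend, 1 with robust moderation, 12 on the logit scale, 0 with no range filter or with cassette events only, 1 with a range of at least 0.10, 39 over all 4 groups, and 0 to 15 with 1 library left out. In U87MG a minimum difference of 0.20 left 307 of 560 at 200 nM and 182 of 329 at 50 nM, and leaving out 1 library gave 386 to 599 and 140 to 387. With siRNA, all 4 groups together called 16 exons in MDA-MB231 and 15 in U87MG, no range filter called 2 in MDA-MB231, and leaving out 1 library called 0 to 1 in MDA-MB231 and 0 in U87MG; the PDX count stayed at 0 in every setting. Line differences went from 329 to 161 at 200 nM and from 148 to 79 at 50 nM at a minimum of 0.20, and to 81 at 50 nM on the logit scale; without 1 library they were 241 to 383 and 80 to 260. With siRNA the line differences were 1 with no range filter, 1 with at least 2 values per group, and 0 to 2 without 1 library. The siRNA mean, 32, became 58 at a minimum of 0.05 and 9 at 0.20, and was 22 to 28 without 1 library. Correlations between same-numbered libraries were -0.00871 to 0.0267 in the cell lines and -0.174 to 0.137 in the PDX. They were taken over all events, with the noise of single values, so they cannot show whether samples were paired. With the replicate number as a block, the counts were 0 and 0 in MDA-MB231 at 200 and 50 nM, 372 and 110 in U87MG, and 22 in the siRNA mean. The cause of these shifts was not tested. Settings added after seeing the data, the siRNA mean and the siRNA fits limited to events also in the 50 nM table, gave 0 calls in each line and 30 in the mean. Of 151 host gene values, DESeq2 kept 147 of the 150 it tested on the same side of the threshold, its size factors in edgeR 146, no filter 134 and the replicate block 147.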
